A study of Mus musculus with 6 samples.

Results

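Oxidative phosphorylation couples the transfer of electrons along the inner mitochondrial membrane to the synthesis of ATP. Complexes I to IV carry electrons from NADH or succinate to oxygen, complexes I, III and IV pump protons as they do so, and complex V (ATP synthase) lets the protons flow back and makes ATP. Most subunits are encoded in the nucleus and the rest in the mitochondrial genome, so each complex except complex II is assembled from the products of both genomes. The genes described here are the nuclear ones. They were chosen by symbol as protein-coding genes named Nduf, Sdh, Uqcr, Cyc1, Cox or Atp5, which gave 91 gene identifiers with 90 symbols of 35856 genes with a target (21790 of them protein-coding). By complex these were 35 complex I subunits, 8 complex I assembly factors (Ndufaf), 4 complex II, 9 complex III, 17 complex IV and 18 complex V genes, with Ndufa4 counted in complex IV. The symbol rule leaves out a few subunits with other names, such as Cox4i1, Ndufab1 and cytochrome c (Cycs), which are given separately.

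The series compared mouse Mdm2 fl/fl p53-/- cells recorded as Mdm2 deleted (titled 4OHT) with a vehicle control (titled EtOH), in 3 labelled cell types with 1 library for each combination. Mdm2 encodes the ubiquitin ligase that restrains p53, and all cells in the series were recorded as p53-/-. The cells were transduced with a retrovirus carrying GFP with or without CreERT2, the tamoxifen-inducible Cre, and then received 1 mM 4-hydroxytamoxifen (libraries labelled 4OHT) or ethanol (libraries labelled EtOH). Exposure lasted 48 h in fibroblasts expanded from ear punches, 6 h in T cell lymphoma and 48 h in sarcoma, both tumours in short-term culture. The vector used for each library is not given in the labels. None of the 6 titles names cells with GFP alone that received the drug, so deletion and drug exposure cannot be told apart.

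Several facts of the whole series bear on every value below. Libraries held 26243064 to 37517726 estimated counts. Mdm2 RNA did not fall with the drug, at 30.5, 31.1 and 31.1 CPM in the libraries labelled fibroblasts, lymphoma and sarcoma 4OHT, against 28.4, 28.0 and 28.5 CPM in those labelled EtOH (edgeR adjusted p = 0.0539). CPM here are estimated counts scaled to library size by TMM. RNA of Trp53, which encodes p53, was found in all 6 libraries. It was at 24.3, 24.3 and 28.5 CPM in libraries labelled 4OHT and 26.9, 22.3 and 24.1 CPM in those labelled EtOH. These RNA values do not measure p53 protein. The cell type labels were not borne out by markers: of 8 T cell markers 0 reached 1 CPM in any library, Cd3d, Cd3e and Cd247 were at 0 in all 6, while mesenchymal markers, 7 of 8 of which reached 1 CPM, were high under every cell type label. Summed mesenchymal markers moved with the arm, at 7462 to 7623 CPM in libraries labelled 4OHT and 13139 to 13602 CPM in those labelled EtOH. Striated muscle markers summed to 8.76 to 9.10 CPM in libraries labelled 4OHT and 2 to 2.76 CPM in those labelled EtOH. Of these 15 markers only 1, Ttn, reached 1 CPM in any library, and Myod1, Myog, Ckm, Myh2 and Myh4 were at 0 in all. Macrophage markers summed to 7.14 to 8.74 CPM in libraries labelled 4OHT and 4.59 to 5.23 CPM in those labelled EtOH, and of 5 only 1, Cd68, reached 1 CPM. Endothelial markers, 0 of 3 of which reached 1 CPM, summed to 0.848 to 1.23 CPM in libraries labelled 4OHT and 0.176 to 0.27 CPM in those labelled EtOH. Summed epithelial markers stayed at or below 0.722 CPM in each library. The part of these markers in the results below was not tested. Over the 85 genes tested here, libraries of the same arm differed by an SD of 0.0654 to 0.102 on the log2 scale, against 0.173 to 0.182 for the pair that shares a cell type label. The 3 labelled pairs served as the replicates of the arm, and the p-values reflect how these 6 libraries vary, which may be technical. In bulk RNA, fewer cells of a type and less RNA per cell cannot be told apart.

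Nuclear oxidative phosphorylation genes were more often lower than higher in the libraries labelled 4OHT. Of the 91 genes, 85 passed the filter on low counts (the others are 5 complex IV isoforms and a second Atp5o identifier at 0 in all libraries), and 48 of these 85 (56.5%) were lower and 3 (3.53%) higher by edgeR's quasi-likelihood test with Benjamini-Hochberg adjustment at 0.05. Over all 15933 genes tested, 24.6% were lower and 25.0% higher. Of the 12556 protein-coding nuclear genes among them, 3708 were lower and 3407 higher. The median log2 fold change was -0.15 (a median change of -9.58%), against 0.02 over all genes and -0.02 over protein-coding nuclear genes. The changes were small: no gene of the set differed 2-fold in any labelled pair (4.22%, 4.22% and 4.33% of all genes did in the pairs labelled fibroblasts, lymphoma and sarcoma), and the largest fold in either direction was 1.75, for Ndufaf4 in the pair labelled sarcoma, with 0.5 CPM added to both libraries. In 51 genes (60.0%) all 3 libraries labelled 4OHT lay below all 3 labelled EtOH, against 27.8% of all genes, and in 3 the reverse held, against 27.7%. At an unadjusted edgeR p under 0.05, Cox5a would join Ndufaf4, Uqcrq and Ndufaf6 as higher. DESeq2 called no gene higher in complexes I, II, IV and V, where 15.9% of all genes were higher.

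**Figure D1:**
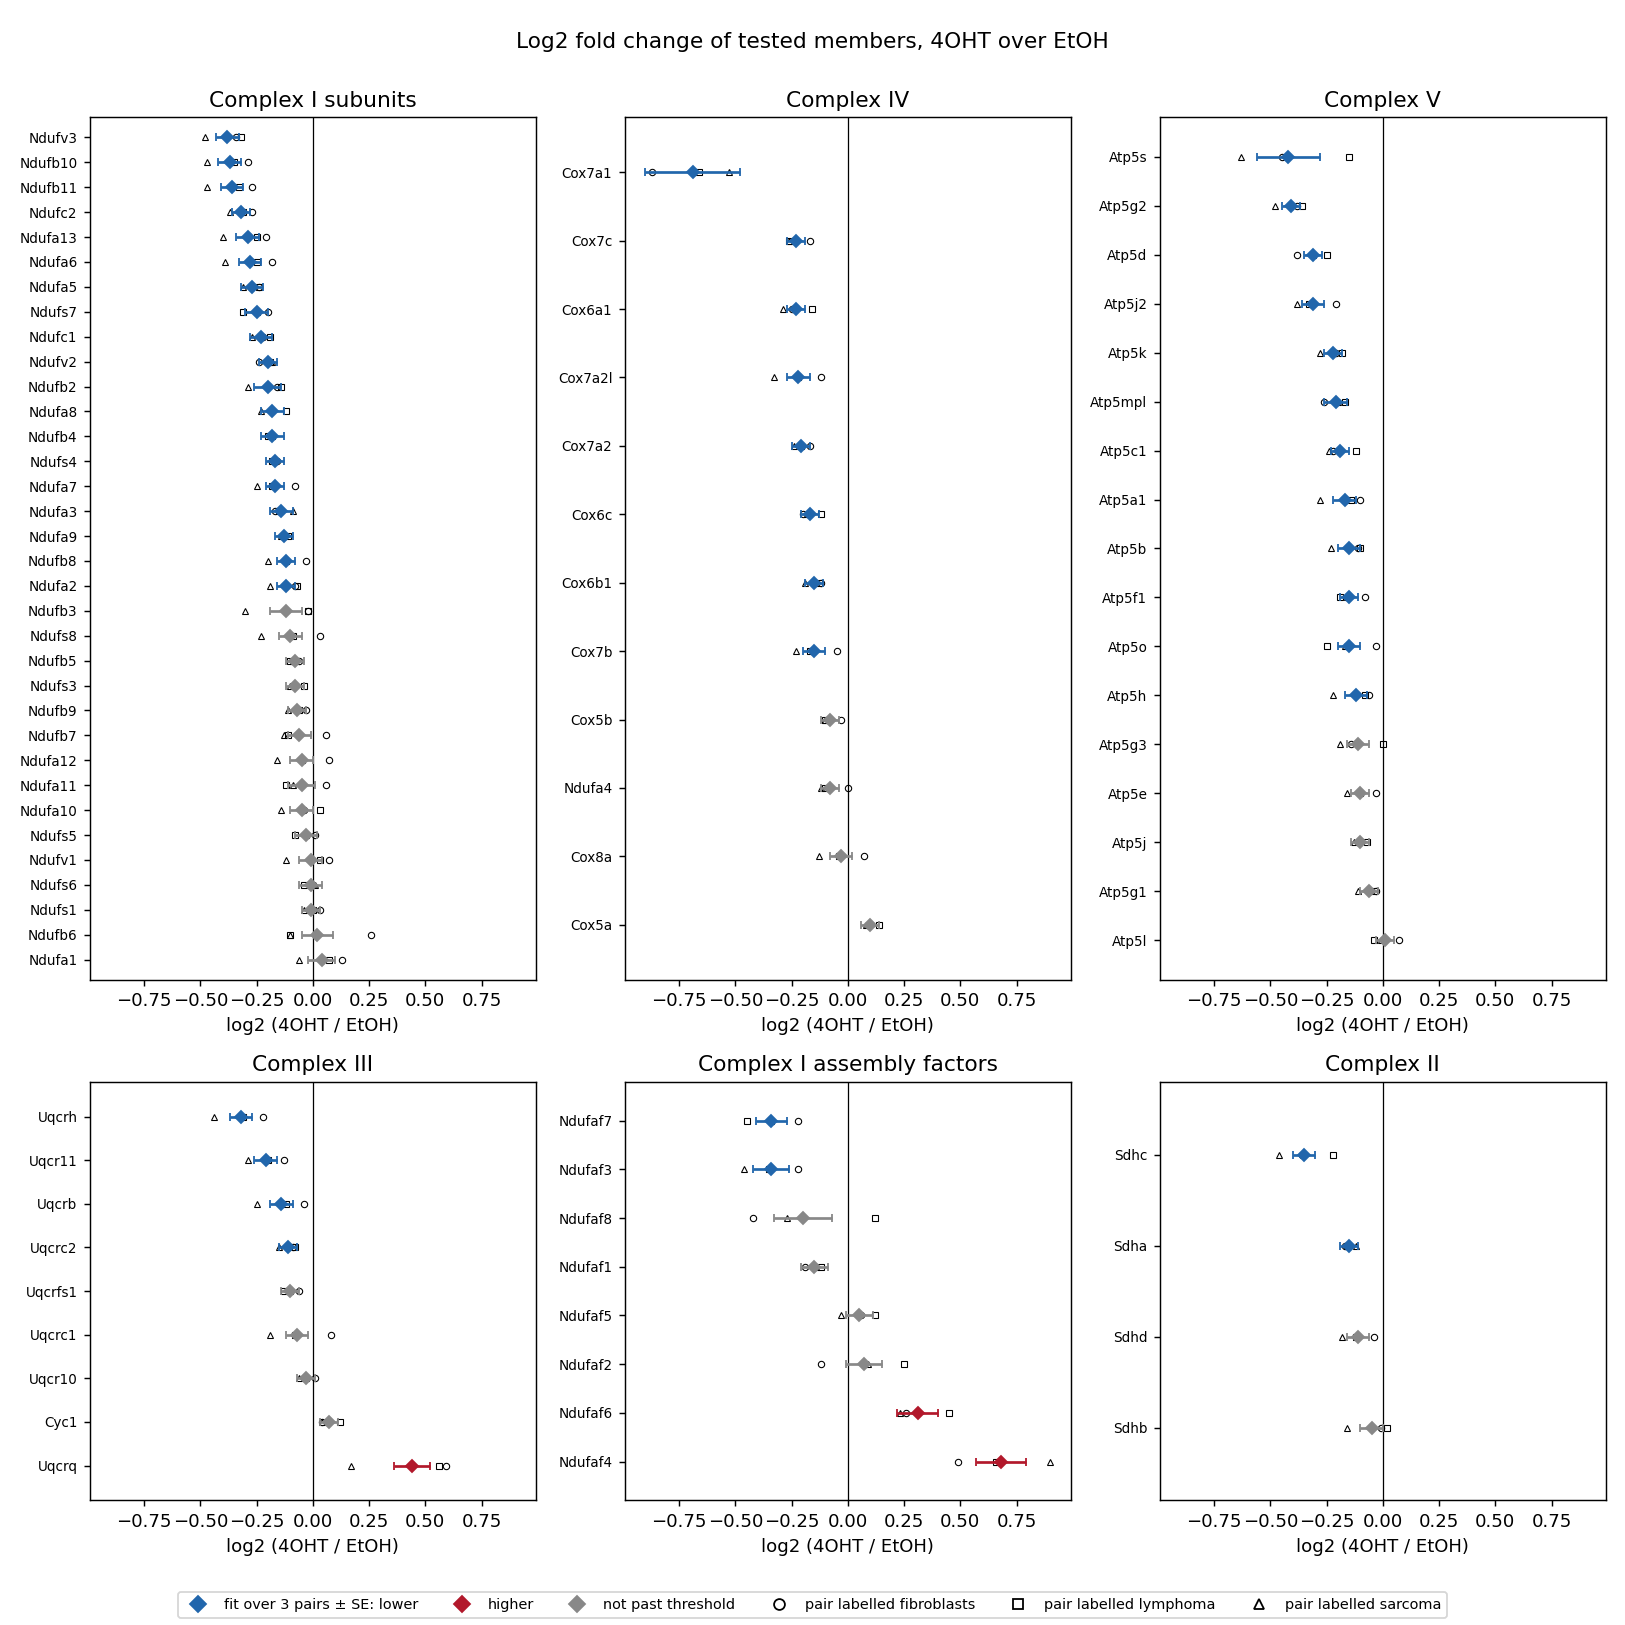
Log2 fold change of tested genes by complex, 4OHT over EtOH. Diamonds are the edgeR estimate over 3 pairs with its SE, coloured by call at adjusted p 0.05, and open symbols are the 3 labelled pairs. Most diamonds lie between -0.69 and 0, and the 3 red ones (Ndufaf4, Uqcrq, Ndufaf6) lie to the right.

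The promoters of Atp5g2 and Ndufb10, which were among the lowest genes, and of Ndufaf4, the highest, each hold a match to the motif of NRF1, a transcription factor known to bind promoters of respiratory genes. These promoters were picked because the genes moved in opposite directions and share that element. They therefore do not show how common the element is among the lowest genes. The sequences run from 250 bases before to 50 bases after the start site (RefSeq, GRCm38.p6), at chr15:102670998-102671297 on the minus strand for Atp5g2, chr17:24724374-24724673 on the minus strand for Ndufb10 and chr4:24897833-24898132 on the plus strand for Ndufaf4. Capitals mark the NRF1 match; in Atp5g2 and Ndufaf4 the matches on both strands overlap and are marked as 1 run. The RefSeq start of Atp5g2 lies inside the GENCODE gene, which runs from 102662864 to 102672352 on chromosome 15.
Atp5g2: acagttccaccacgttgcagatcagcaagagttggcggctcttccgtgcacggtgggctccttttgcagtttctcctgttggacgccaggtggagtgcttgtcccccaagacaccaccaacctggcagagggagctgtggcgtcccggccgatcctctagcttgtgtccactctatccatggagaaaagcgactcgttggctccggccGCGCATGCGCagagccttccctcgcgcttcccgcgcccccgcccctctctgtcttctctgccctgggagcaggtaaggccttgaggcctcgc
Ndufb10: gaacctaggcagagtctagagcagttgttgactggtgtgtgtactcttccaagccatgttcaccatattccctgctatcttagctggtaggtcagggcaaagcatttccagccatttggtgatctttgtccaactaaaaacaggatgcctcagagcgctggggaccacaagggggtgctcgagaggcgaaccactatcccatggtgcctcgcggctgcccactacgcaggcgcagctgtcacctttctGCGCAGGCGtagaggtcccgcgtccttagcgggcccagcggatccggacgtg
Ndufaf4: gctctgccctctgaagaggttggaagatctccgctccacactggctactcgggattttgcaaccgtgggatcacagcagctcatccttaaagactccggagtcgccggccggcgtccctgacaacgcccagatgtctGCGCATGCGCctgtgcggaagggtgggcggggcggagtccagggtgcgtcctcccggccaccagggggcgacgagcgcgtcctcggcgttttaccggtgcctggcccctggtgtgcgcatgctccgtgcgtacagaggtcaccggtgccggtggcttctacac
The promoter of Ndufv3, also among the lowest genes, held none of the motifs searched. No NRF1 match was found in the promoters of Cox7a1, Atp5s, Ndufb11, Ndufaf3, Ndufaf7, Uqcrh, Ndufc2, Atp5d, Atp5j2 and Ndufa13. These genes are also among the 14 lowest that were named, and Sdhc, the remaining one, had no promoter entry.

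A RefSeq promoter was found for 72 of the 85 tested genes, with no entry for genes that include Atp5a1, Atp5mpl, Cox6c, Cyc1, Ndufa2, Ndufaf6, Ndufb9, Ndufs1, Sdhc, Uqcrb, Uqcrc2 and Uqcrq. Both strands were searched. The NRF1 motif, spelled GCGCANGCG, occurred in 29.2% of these 72 promoters and in 14.2% of the 9942 promoters of tested protein-coding genes. The motif of GABP, an ETS-family factor, spelled CCGGAAG, occurred in 23.6% of the 72 and 18.7% of the 9942. The YY1 motif, spelled AAGATGGCG, occurred in 9.72% of the 72 and 3.27% of the 9942. The oestrogen-related receptor motif, spelled TCAAGGTCA, occurred in 2 of the 72 (2.78%) and in 26 of the 9942 (0.262%). Both of the 2 were promoters of genes not called. The E-box CACGTG occurred in 8.33% of the 72 and 10.1% of the 9942. Within the set, the NRF1 motif was found in 12 of the 40 lower genes with a promoter (30%) and in 8 of the 31 not called (25.8%). GABP motifs were found in 6 of the 40 lower genes and in 11 of the 31 not called. A match is a run of letters and not evidence of binding.

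Complex I, the NADH dehydrogenase that feeds electrons to ubiquinone, had 20 of 35 subunits lower and 0 higher. The shares over all genes were 24.6% and 25.0%. The median log2 fold change of complex I was -0.13. Of its 7 core subunits, which include the carriers of its flavin and iron-sulphur centres, 3 were lower, as were 17 of 28 accessory subunits. The lowest was Ndufv3 (chromosome 17, 31520115 to 31531331 on GRCm38), an accessory subunit beside the NADH-binding module, at 45.0, 45.0 and 44.2 CPM in the libraries labelled fibroblasts, lymphoma and sarcoma 4OHT, against 57.0, 56.2 and 61.5 CPM in those labelled EtOH. The arms did not overlap, and the log2 fold change was -0.38 with SE 0.05 (edgeR adjusted p = 4.05e-05). Both main Ndufv3 targets, of 315 and 1407 bases, were lower in all 3 pairs.

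Membrane-arm accessory subunits were next. Ndufb10 stood at 36.5, 32.2 and 35.7 CPM in libraries labelled 4OHT and 44.7, 41.1 and 49.4 CPM in those labelled EtOH, with no overlap (log2 fold change -0.37, SE 0.05, edgeR adjusted p = 8.17e-05). Ndufb11 averaged 46.6 ± 2.98 CPM in libraries labelled 4OHT and 59.5 ± 1.08 CPM in those labelled EtOH (SD, n = 3 each; log2 fold change -0.36). Ndufc2 averaged 39.0 ± 0.0747 CPM in libraries labelled 4OHT and 48.7 ± 1.68 CPM in those labelled EtOH (SD, n = 3 each; -0.32). Ndufa13, known also as GRIM-19, averaged 77.3 ± 1.89 CPM in libraries labelled 4OHT and 94.3 ± 4.63 CPM in those labelled EtOH (SD, n = 3 each; -0.29). In these 3 genes the arms did not overlap.

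Of the electron-carrying subunits of complex I, Ndufv2 and Ndufs7, both iron-sulphur proteins, were lower, at -0.20 (SE 0.04, edgeR adjusted p = 0.0014) and -0.25 (SE 0.05, edgeR adjusted p = 0.00179), and in both the arms did not overlap. Ndufv1, Ndufs1 and Ndufs8 (-0.10, edgeR adjusted p = 0.148) were not called. Ndufv1, which binds NADH, stood at 104, 102 and 101 CPM in libraries labelled 4OHT and 98.9, 99.6 and 110 CPM in those labelled EtOH, and the arms overlapped (log2 fold change -0.01, SE 0.05, edgeR adjusted p = 0.927). Ndufs1, the large iron-sulphur subunit, had 84.4, 82.6 and 82.9 CPM in libraries labelled 4OHT against 82.9, 82.8 and 85.2 CPM in those labelled EtOH (-0.01, SE 0.04, edgeR adjusted p = 0.919). Ndufa2 had the highest mean TPM in complex I, 227, and was among the lower genes at -0.12. The other lower subunits of the complex lay between -0.28 (Ndufa6) and -0.12 (Ndufb8), and the 15 not called between -0.12 (Ndufb3) and 0.04 (Ndufa1). TPM, a share of transcripts corrected for target length, allows levels to be compared between genes of different length.

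The 8 complex I assembly factors, which build the complex and are not part of it, had 2 genes higher, 2 lower and 4 not called, with a median log2 fold change of -0.05. Over all genes, 25.0% were higher and 24.6% lower. DESeq2 called 1 of the 8 higher and 1 lower, against 15.9% and 15.6% of all genes. Ndufaf4 (chromosome 4, 24898083 to 24905001) was the highest gene of the set. Its level was 6.21, 5.71 and 6.18 CPM in libraries labelled 4OHT, against 4.42, 3.61 and 3.32 CPM in those labelled EtOH (log2 fold change 0.68, SE 0.11, edgeR adjusted p = 0.000428). The ratios were 1.4 (95% interval 1.11 to 1.78), 1.58 (1.23 to 2.04) and 1.86 (1.47 to 2.36) in the pairs labelled fibroblasts, lymphoma and sarcoma. These intervals are Clopper-Pearson intervals from the counts and cover counting error only. Ndufaf6 averaged 7.88 ± 0.172 CPM in libraries labelled 4OHT and 6.35 ± 0.441 CPM in those labelled EtOH (SD, n = 3 each; 0.31), a call that DESeq2 did not make (adjusted p = 0.176).

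Ndufaf3 and Ndufaf7 were lower. Ndufaf3 averaged 7.16 ± 0.239 CPM in libraries labelled 4OHT and 9.08 ± 0.603 CPM in those labelled EtOH (SD, n = 3 each; log2 fold change -0.34), a call that DESeq2 did not make (adjusted p = 0.0991). Ndufaf7, a methyltransferase, averaged 15.5 ± 0.855 CPM in libraries labelled 4OHT and 19.6 ± 0.600 CPM in those labelled EtOH (SD, n = 3 each; -0.34). Ndufaf8, the assembly factor with the highest mean TPM (22.3), was not called (-0.20, SE 0.13, edgeR adjusted p = 0.209), and neither were Ndufaf1 (-0.15), Ndufaf2 (0.07) or Ndufaf5 (0.05).

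Complex II, succinate dehydrogenase, is encoded wholly in the nucleus and has 4 genes. Of these, 2 were lower and 0 higher, against 24.6% and 25.0% of all genes. Sdhc (chromosome 1, 171127165 to 171150603), a membrane anchor subunit, was at 32.6, 31.8 and 30.9 CPM in libraries labelled 4OHT and 41.7, 37.0 and 42.5 CPM in those labelled EtOH, with no overlap (log2 fold change -0.35, SE 0.05, edgeR adjusted p = 0.000292). Sdha, the flavoprotein that oxidises succinate, averaged 185 ± 4.27 CPM in libraries labelled 4OHT and 206 ± 1.05 CPM in those labelled EtOH (SD, n = 3 each; -0.15). Sdhb, the iron-sulphur subunit, had 64.4, 63.8 and 64.1 CPM in libraries labelled 4OHT and 64.7, 63.1 and 71.4 CPM in those labelled EtOH, and was not called (edgeR adjusted p = 0.385). Sdhd, the other anchor and the gene with the highest mean TPM in the complex (55.6), gave -0.11 and was not called (edgeR adjusted p = 0.0652).

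Complex III, which passes electrons from ubiquinol to cytochrome c, had 4 of 9 genes lower and 1 higher. The shares over all genes were 24.6% and 25.0%, and the median of the complex was -0.10. Uqcrh, the hinge subunit, was at 60.8, 57.0 and 58.0 CPM in libraries labelled 4OHT and 70.6, 70.9 and 78.6 CPM in those labelled EtOH, with no overlap (log2 fold change -0.32, SE 0.05, edgeR adjusted p = 0.000185). Uqcrq (chromosome 11, 53427922 to 53430831), a small structural subunit, went the other way. Its level was 34.9, 36.4 and 26.9 CPM in the libraries labelled fibroblasts, lymphoma and sarcoma 4OHT, against 23.2, 24.7 and 23.9 CPM in those labelled EtOH (0.44, SE 0.08, edgeR adjusted p = 0.000526). The pair labelled sarcoma differed least, with a ratio of 1.13 (95% interval 1.02 to 1.25), and by deposited TPM that pair was lower, with 167 for its 4OHT library and 173 for its EtOH library. The redox subunits were not called: Uqcrfs1, the Rieske iron-sulphur protein, averaged 80.7 ± 4.68 CPM in libraries labelled 4OHT and 86.2 ± 3.64 CPM in those labelled EtOH (SD, n = 3 each), with an edgeR adjusted p of 0.0694. Cyc1, cytochrome c1, averaged 105 ± 8.85 CPM in libraries labelled 4OHT and 100 ± 7.32 CPM in those labelled EtOH (SD, n = 3 each), with an edgeR adjusted p of 0.211. Uqcr11 had the highest mean TPM in the complex (355) and was lower (-0.21), as were Uqcrb (-0.14) and Uqcrc2 (-0.11), while Uqcrc1 (-0.07) and Uqcr10 (-0.03) were not called.

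Complex IV, cytochrome c oxidase, had 8 of 12 tested genes lower and 0 higher, against 24.6% and 25.0% of all genes. The median target length of the tested genes was 244 bases. Of all tested protein-coding nuclear genes with targets under 300 bases, 34.3% were lower. Complex IV had a median log2 fold change of -0.16. Its 5 untested genes are isoforms that muscle, testis or other tissues are known to use, and were at or near 0 here: Cox8c at 0 in all libraries, and Cox6b2, Cox7b2, Cox8b and Cox6a2 at means of 0 to 0.262 CPM in libraries labelled 4OHT and 0 to 0.0810 CPM in those labelled EtOH. Of the tissue-restricted isoforms Cox7a1 (chromosome 7, 30184144 to 30186078) alone was tested. It gave the lowest value of the set at 0.882, 0.789 and 0.867 CPM in libraries labelled 4OHT and 1.61, 1.25 and 1.25 CPM in those labelled EtOH (log2 fold change -0.69, SE 0.21, edgeR adjusted p = 0.0174). The arms did not overlap, but the counts were 21 to 26 in libraries labelled 4OHT and 37 to 47 in those labelled EtOH, and DESeq2 gave an adjusted p of 0.232. Common isoforms were far more abundant and mostly lower. Cox7a2, the common partner of Cox7a1, averaged 87.2 ± 3.47 CPM in libraries labelled 4OHT and 101 ± 4.05 CPM in those labelled EtOH (SD, n = 3 each; -0.21). Cox6a1 gave -0.23, Cox6b1 -0.15 and Cox7b -0.15, while Cox8a was not called (-0.03, edgeR adjusted p = 0.593). Cox7c had the highest mean TPM of the set, 841, and was lower (-0.23). Cox5a, one of the nuclear subunits near the catalytic core, gave 0.10 and was not called (edgeR adjusted p = 0.0760). With a correction of the edgeR fit for target length, Cox5a was called higher (0.13, edgeR adjusted p = 0.0165). Cox7a2l (-0.22) and Cox6c (-0.17) were also lower, and Cox5b and Ndufa4, at -0.08 each, were not called.

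Complex V had 12 of 17 tested genes lower and 0 higher, against 24.6% and 25.0% of all genes, with a median of -0.15. In the F1 head, where ATP is made, 4 of 5 genes were lower. Its alpha subunit gene Atp5a1 stood at 775, 769 and 758 CPM in libraries labelled 4OHT and 833, 846 and 918 CPM in those labelled EtOH (log2 fold change -0.17, SE 0.05, edgeR adjusted p = 0.0106). Its beta subunit gene Atp5b was at 866, 869 and 846 CPM in libraries labelled 4OHT against 937, 929 and 996 CPM in those labelled EtOH (-0.15, SE 0.05, edgeR adjusted p = 0.0194). Both were lower in all 3 pairs. Atp5d, the delta subunit, averaged 56.4 ± 1.13 CPM in libraries labelled 4OHT and 70.2 ± 3.75 CPM in those labelled EtOH (SD, n = 3 each; -0.31). Atp5e, with the highest mean TPM in the complex (771), gave -0.10 and was not called (edgeR adjusted p = 0.0837).

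The c subunit, which forms the proton-driven ring, is made from 3 genes with the same mature protein, of which Atp5g2 was called. Atp5g2 was at 252, 248 and 255 CPM in libraries labelled 4OHT against 328, 319 and 356 CPM in those labelled EtOH (log2 fold change -0.41, SE 0.04, edgeR adjusted p = 1.38e-05). Atp5g1 averaged 66.9 ± 0.389 CPM in libraries labelled 4OHT and 69.8 ± 2.34 CPM in those labelled EtOH, and Atp5g3 averaged 120 ± 3.5 CPM in libraries labelled 4OHT and 130 ± 7.23 CPM in those labelled EtOH (SD, n = 3 each). These 2 were not called (edgeR adjusted p = 0.241 and 0.0649). The difference between the 3 genes was not tested. Kallisto splits reads among similar sequences, so values of such paralogs are uncertain as a split. Outside the F1 head, Atp5j2, a membrane subunit, gave -0.31, and Atp5s, a factor coupling the head to the membrane, gave -0.42 at 2.71 ± 0.164 CPM in libraries labelled 4OHT and 3.61 ± 0.498 CPM in those labelled EtOH (SD, n = 3 each), a call that DESeq2 did not make (adjusted p = 0.237). The other 6 lower genes of complex V, among them the F1 gene Atp5c1 (-0.19), lay between -0.22 (Atp5k) and -0.12 (Atp5h). Atp5j (-0.10) and Atp5l (0.01) were not called.

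**Figure D2:**
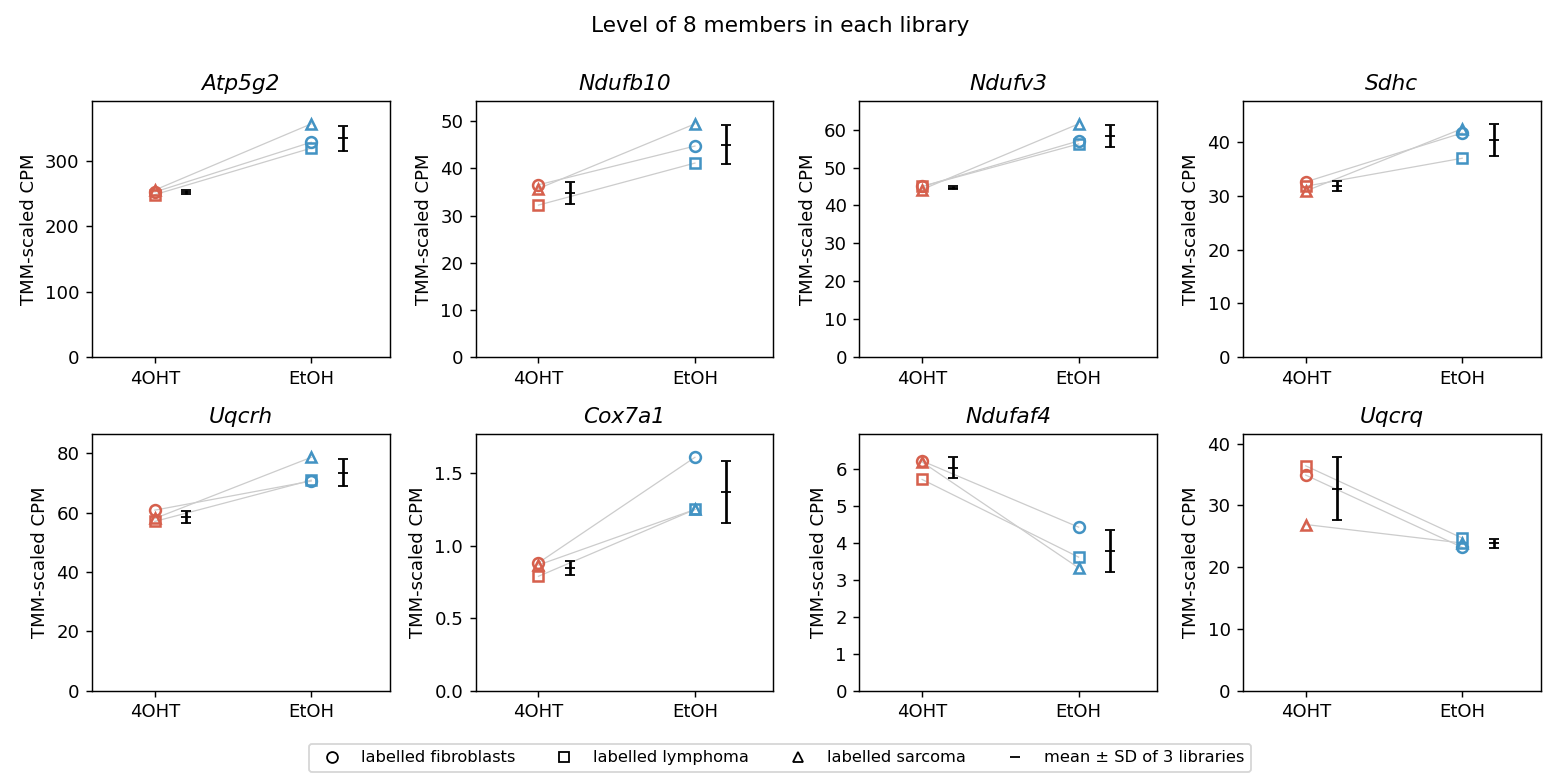
TMM-scaled CPM of 8 genes in the 3 libraries labelled 4OHT (left) and the 3 labelled EtOH (right). Each symbol is a library, grey lines join libraries of 1 cell type label, and the bar is the mean ± SD of 3. Ndufaf4 and Uqcrq are higher in 4OHT and the other genes lower, with no overlap between arms in any of them. The 8 genes were chosen among those called by edgeR. Over all genes the arms did not overlap in 27.8% (lower) and 27.7% (higher).

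Summed over each of complexes I to V, the 3 libraries labelled 4OHT lay below the 3 labelled EtOH. All 91 genes together came to 6990, 6828 and 6890 CPM in the libraries labelled fibroblasts, lymphoma and sarcoma 4OHT, against 7555, 7487 and 8024 CPM in those labelled EtOH, which are ratios of 0.925, 0.912 and 0.859. The smallest gap was in complex III, at 601, 581 and 573 CPM in libraries labelled 4OHT and 607, 603 and 635 CPM in those labelled EtOH, and the complex I assembly factors overlapped. By deposited TPM the pair labelled lymphoma was not lower, with 14192 for its 4OHT library and 13920 for its EtOH library (ratio 1.02). TPM includes short noncoding RNA, which took 39.9% of TPM in that 4OHT library and 43.5% in that EtOH library. In the pair labelled fibroblasts it took 43.1% in the 4OHT library and 41.1% in the EtOH library. The pair labelled sarcoma had 43.9% and 41% in the same order. The part of this RNA in the TPM ratios was not tested.

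**Figure D3:**
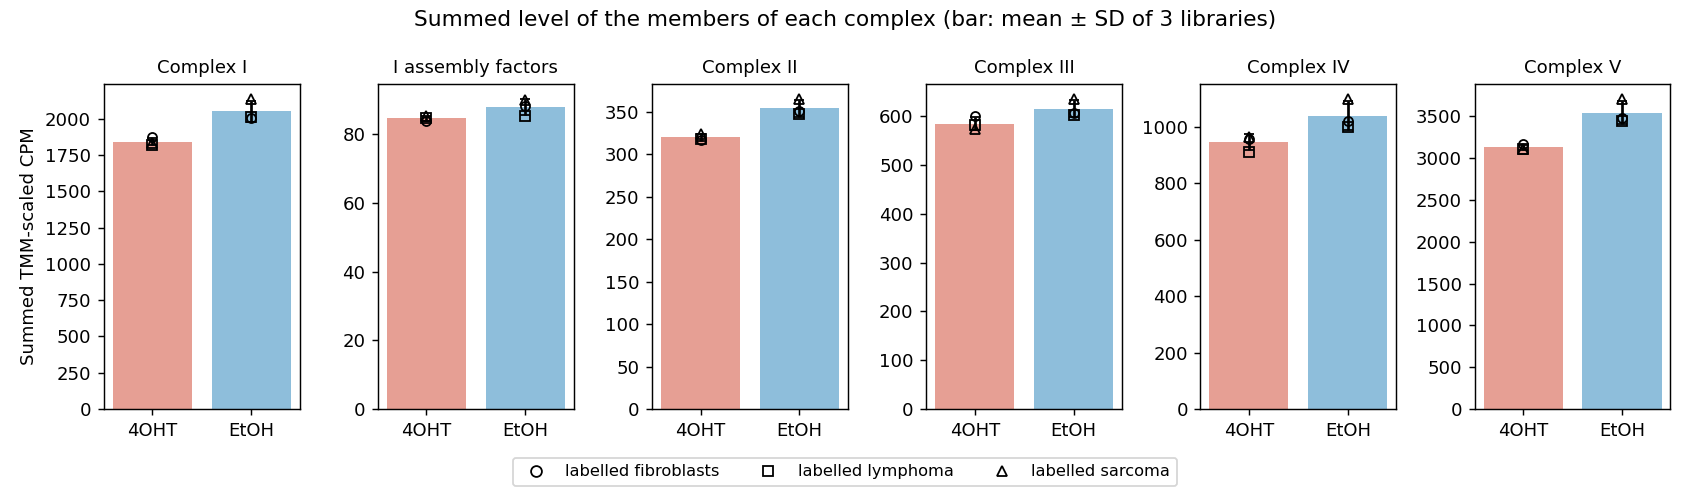
Summed TMM-scaled CPM of the genes of each complex, with the libraries labelled 4OHT left of those labelled EtOH. Bars are means of 3 libraries with SD and symbols are the libraries. In complexes I to V all 3 libraries labelled 4OHT lie below all 3 labelled EtOH.

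The median of the set was below 0 in each labelled pair and lowest in the pair labelled sarcoma. Of the 85 tested genes 65 (76.5%), 73 (85.9%) and 78 (91.8%) were below 0 in the pairs labelled fibroblasts, lymphoma and sarcoma, against 49.9%, 49.4% and 48.3% of all genes, and the medians were -0.11, -0.12 and -0.19. The library labelled sarcoma EtOH held the highest value of all 6 for 61 of 85 genes, against 22.9% of all genes. That library also had the most counts (37517726) and the least ribosomal RNA, 0.570% of its counts, where the other 5 libraries had 1.62% to 3.61%, and the part of either in the result was not tested. Without the pair labelled sarcoma 37 genes of the set were lower, against 20.9% of all genes in that fit. Without the pair labelled lymphoma 36 were lower, against 19.9% of all genes, and without the pair labelled fibroblasts 52, against 24.7%.

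Most of these genes have short targets, with a median length of 441 bases against 1350 for all protein-coding nuclear genes, and the change of protein-coding genes varied with target length. The median log2 fold change of all tested protein-coding nuclear genes was -0.13 under 300 bases and 0.05 at 3000 bases or more. Under 300 bases 34.3% of these genes were lower, as were 13 of 20 genes of the set. From 300 to under 500 bases the values were 37.3% and 14 of 29, and from 500 to under 800 bases 29.9% and 12 of 17. From 800 to under 1200 bases they were 29% and 3 of 10, and from 1200 to under 2000 bases 29.3% and 6 of 8. Within length ranges the set compared with all protein-coding nuclear genes as follows: below 300 bases its median was -0.18 against -0.13 and from 300 to under 500 bases -0.12 against -0.11, while from 500 to under 800 bases it was -0.17 against -0.04, from 800 to under 1200 bases -0.08 against -0.03 and from 1200 to under 2000 bases -0.15 against -0.02. With a correction of the fit for target length, 46 of the 85 genes were lower (54.1%) and 4 higher. That fit held 12537 protein-coding nuclear genes, of which 35.8% were lower and 25.4% higher. The median of the set was -0.13 in it, against -0.06 for all its genes. Of the 46, 43 were among the 48 lower genes of the main fit. Cox5a (0.13) was called higher and Uqcrfs1 (-0.11) lower with the correction, and neither was called in the main fit. Targets near the mean fragment length, which kallisto's effective lengths put at 167.8 to 171.7 bases, have uncertain TPM.

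**Figure D4:**
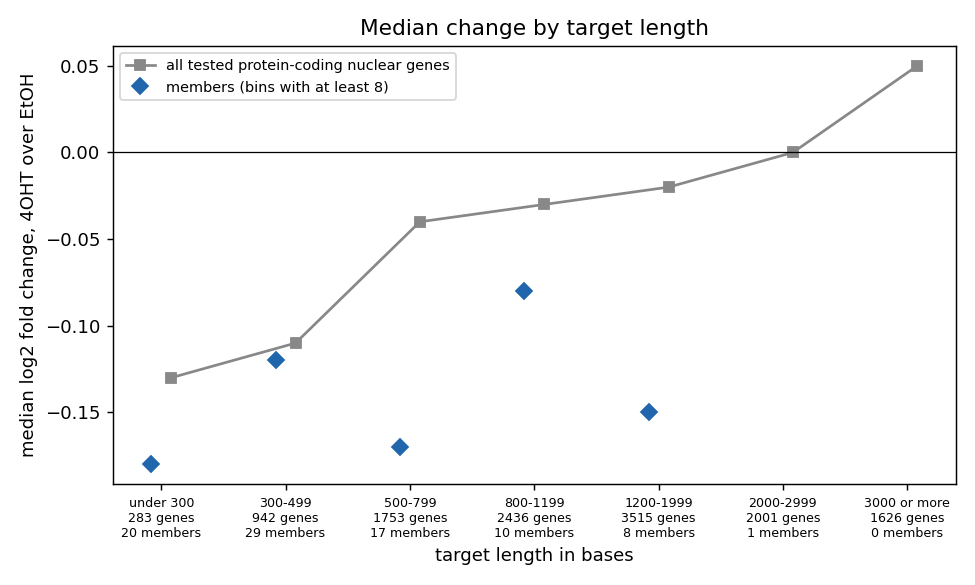
Median log2 fold change by target length, labelled 4OHT over labelled EtOH, for all tested protein-coding nuclear genes (grey squares) and for the genes of the set (blue diamonds, bins with at least 8). The grey line lies at -0.13 for the shortest genes and 0.05 for the longest, and the diamonds lie between -0.18 and -0.08.

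On other scales and tests fewer of the genes were called. DESeq2 called 31 of the 85 genes lower (36.5%), against 15.6% of all genes. These were 13 subunits of complex I, 1 assembly factor, 2 genes of complex II, 1 of complex III, 5 of complex IV and 9 of complex V. Of the lower genes named above, DESeq2 did not call Ndufa2, Ndufb8, Ndufaf3, Uqcr11, Uqcrb, Uqcrc2, Cox6b1, Cox7a1, Cox7b, Atp5h and Atp5s. Limma on log2(TPM + 1) called 5 (5.88%), against 9.74% of all genes, and those were Cox7a1, Atp5g2, Ndufv3, Ndufb10 and Ndufb11. On that scale the share of the set was below that of all genes. When TPM was rescaled to protein-coding nuclear genes, an alternative chosen after the data were seen, 25 were lower (29.4%), against 12.2% of all genes.

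Genes that work with these complexes but lie outside the symbol rule were called in both directions. Of 6 such electron-transfer or complex genes 1 was higher and 2 lower, where 25.0% of all genes were higher and 24.6% lower. The higher gene was Cycs, the mobile carrier cytochrome c (log2 fold change 0.69, SE 0.05, edgeR adjusted p = 3.27e-07). Cycs was at 43.8, 44.2 and 44.4 CPM in libraries labelled 4OHT and 27.8, 27.1 and 27.0 CPM in those labelled EtOH. The 2 lower ones were Atpif1, an inhibitor of ATP synthase (-0.26), and Ndufa4l2 (-1.14), which was at under 2 CPM and which DESeq2 did not call (adjusted p = 0.103). Cox4i1, a core nuclear subunit of complex IV, was not called (-0.12). Of 35 tested assembly factors other than Ndufaf genes, 8 were higher and 10 lower, with a median of 0.01, where 25.0% of all genes were higher and 24.6% lower. DESeq2 called 6 of them higher, against 15.9% of all genes, and 1 lower, against 15.6%, so the balance of the calls differed between the tests. The higher ones included Cox18 at 1.00, which inserts a mitochondrially made subunit into the membrane, Cox10 at 0.65, an enzyme of heme A synthesis, Foxred1 at 0.53 and Sco1, a copper chaperone, at 0.49. The lower ones included Cox20 at -0.58, Bcs1l at -0.34, and Coa3 and Cox19 at -0.31 each, and of these DESeq2 called Cox20 alone.

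Of 17 tested regulators of respiratory genes and of mitochondrial transcription, 6 were higher and 1 lower, with a median of 0.15, where 25.0% of all genes were higher and 24.6% lower. DESeq2 called 4 higher and 0 lower, against 15.9% and 15.6% of all genes. With the length correction 6 were higher and 5 lower, against 25.4% and 35.8% of the genes in that fit. Ppargc1b, a coactivator, gave 1.08 at under 2 CPM in every library, Myc gave 0.61, Pprc1, a relative of Ppargc1b, gave 0.52 and Twnk, the mitochondrial helicase, gave 0.30. Tfb2m, a mitochondrial transcription factor, was lower (-0.24), a call that DESeq2 did not make (adjusted p = 0.236). The NRF1 and GABP-alpha genes themselves were not called, at 0.12 and -0.08. The GABP-beta genes Gabpb1 and Gabpb2 were higher, at 0.17 and 0.18 (edgeR adjusted p = 0.0301 and 0.00554). DESeq2 did not make these calls (adjusted p = 0.257 and 0.0814). Of the 13 protein-coding genes of the mitochondrial genome edgeR called 0 higher (1 at an unadjusted p under 0.05, and 0 by DESeq2) and 2 lower, mt-Nd3 (-0.29) and mt-Nd6 (-0.22), where 24.6% of all genes were lower. DESeq2 called mt-Nd3 alone lower, against 15.6% of all genes, and limma on log2(TPM + 1) called 0 of the 13. In mt-Nd6 the arms overlapped, and the log2 ratios were -0.52, -0.08 and -0.03 in the pairs labelled fibroblasts, lymphoma and sarcoma. Their pair medians were -0.47, 0.03 and 0.10 in the pairs labelled fibroblasts, lymphoma and sarcoma.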

How the data were processed

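RNA was measured in 6 mouse libraries with a stranded total RNA kit and rRNA depletion. Per transcript, the deposited files hold estimated counts and TPM which the authors made, per the submitters' processing notes, with kallisto 0.43.0 on GRCm38; the strand setting and transcript set are not given in the sources used here, so overlapping antisense reads cannot be told apart with certainty. The deposited estimated counts were added up by gene through a GENCODE annotation of GRCm38 and rounded, and so, unrounded, was the deposited TPM. The 1006 unmatched targets held 0.393% to 0.410% of counts and were left out. Of 56655 coding targets 92.8% have exactly the annotated coding length.

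The main test was edgeR 4.0.16 (two-sided quasi-likelihood test, TMM scaling, low counts removed by filterByExpr, Benjamini-Hochberg over 15933 genes, threshold 0.05), blocked on cell type over 3 pairs, which left 2 residual degrees of freedom. Pairs follow the cell type labels; after subtracting arm means, the libraries of a pair correlated across genes at 0.0957, 0.265 and 0.267. Within a pair there is no replicate and no test. DESeq2 1.42.0 and limma 3.58.1 (log2(TPM + 1)) were alternatives, with R 4.3.3. The length correction used a loess offset of span 0.3 and was fitted to protein-coding nuclear genes only. The fits were tested on simulated data.

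The genes, the lists and the rule for naming genes were chosen with earlier results of these data known. Named were the 14 lowest and up to 8 highest called genes that moved alike in all 3 pairs, the gene of highest mean TPM in each complex, catalytic or electron-carrying subunits, tissue-restricted and common isoforms, and at most 4 called genes per list and direction. A subunit that the rule covers is not reported here by name.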

Additional observations from a re-analysis of the deposited data

How the results depend on the processing

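The 48 lower and 3 higher genes of the set came from the fit blocked on cell type. DESeq2 gave 31 lower, limma on log2(TPM + 1) gave 5 lower and 1 higher, and limma on TPM rescaled to protein-coding nuclear genes, chosen after the data were seen, gave 25 lower. All 31, 5 and 25 were among the 48. Without the replicate block 42 were lower and 3 higher, where 3772 of all genes were lower and 3742 higher. Leaving out 1 pair gave 36 to 52 lower genes and 2 to 3 higher. Over all genes, DESeq2 called 2488 lower and 2541 higher, limma on log2(TPM + 1) 1552 and 2352, and on rescaled TPM 1947 were lower, against 3920 lower and 3981 higher with edgeR and the block.

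The median log2 fold change of the set was -0.10 on rescaled TPM, against -0.15, and that of complex II -0.09, against -0.13. The complex IV median was -0.10 with the length correction, against -0.16 in the main fit and -0.14 in a fit of protein-coding nuclear genes only. The median over all genes of the fit also moved. It was 0.05 on rescaled TPM, against 0.02 in the main fit. With the length correction, fitted to protein-coding nuclear genes only, it was -0.06, against -0.00 for those genes without the correction. Leaving out 1 pair gave -0.18 to -0.12 for complex I and -0.17 to -0.12 for complex II. The median ratio in the pair labelled lymphoma was 0.02 by deposited TPM, against -0.12, and that in the pair labelled sarcoma -0.11 on rescaled TPM, against -0.19. Uncalled genes near 0 changed sign: Ndufs1 gave 0.01 among protein-coding genes, Ndufv1 gave 0.01 there and on log2(TPM + 1) and 0.02 on rescaled TPM, and Cox8a gave 0.03 with the length correction and 0.01 on rescaled TPM. Leaving out 1 pair gave -0.09 to 0.00 for Sdhb, -0.04 to 0.01 for Ndufs1, -0.07 to 0.05 for Ndufv1 and -0.10 to 0.01 for Cox8a. The causes were not tested. With 1 library per group, depth and replication limit changes within a pair, and genes at a few counts, such as Cox7a1, are imprecise.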
